A study of Mus musculus with 8 samples.

Results

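Cells carry receptors for the Fc part of immunoglobulin G (IgG), and 6 mouse genes that make or hold such receptors were followed here: Fcgr1, Fcgr3 and Fcgr4, the signal chain gene Fcer1g, the inhibitory receptor gene Fcgr2b and the neonatal receptor gene Fcgrt. They were chosen by symbol, and all 6 were found among the 21968 named genes of the deposited tables and passed the filter on low reads that left 14404 genes to test. The RNA came from livers of mice that carry an Lgr5-LacZ transgene on a mixed C57BL/6 and CBA background, aged 10 to 12 weeks by the sample labels and 7 to 12 weeks by the series text. Every mouse had received 1 intraperitoneal dose of carbon tetrachloride (CCl4, a liver toxin) of 1 µl per g body weight in rapeseed oil, 6 days before the liver was taken, so that all groups share the injury and the transgene and no uninjured group was analysed here. The 4 groups, with 2 libraries each, were hepatocytes, sorted EpCAM-positive cells (cholangiocytes, or bile duct cells, by the series text), and F4/80high cells sorted as either b-gal+ or b-gal-. F4/80 is a macrophage surface protein, and b-gal+ means that a cell turned a fluorogenic substrate of β-galactosidase into dye; the series title assigns that activity to an endogenous enzyme of Kupffer cells, the resident macrophages of the liver. Each library pooled cells of 2 mice, so the p-values below measure the spread between pools and not between single animals.

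The receptors made by Fcgr1, Fcgr3 and Fcgr4 are activating: they bind IgG on a coated particle and signal through the γ chain made by Fcer1g, whose cytoplasmic tail holds an activation motif (ITAM) that Src-family kinases phosphorylate and that the kinase Syk then binds. The receptor made by Fcgr2b, FcγRIIb, has an inhibitory motif in its own tail that recruits the lipid phosphatase SHIP1, the product of Inpp5d; in liver it is known from sinusoidal endothelial cells, where it takes up small immune complexes. The neonatal receptor, FcRn, pairs the product of Fcgrt with β2-microglobulin (B2m) and returns IgG and albumin from endosomes to the blood.

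Most of the genes, 4 of the 6, lie on the same stretch of chromosome 1. Fcgr2b (chr1:170958617-170976547, minus strand), Fcgr4 (chr1:171018920-171029761, plus strand), Fcgr3 (chr1:171051174-171064935, minus strand) and Fcer1g (chr1:171229572-171234365, minus strand) span 275.7 kb of chromosome 1, whereas Fcgr1 (chr3:96282909-96293969) and Fcgrt (chr7:45092990-45103851), both on the minus strand, lie elsewhere (GENCODE M21, GRCm38). All are protein coding. The genes Fcgr2b and Fcgr3, which were highest in different groups, share part of their coding sequence, and the longest identical run between the transcripts Fcgr2b-201 and Fcgr3-201 is shown because reads inside it cannot be assigned to either gene by sequence. It is 129 bases long and covers bases 402 to 530 of the first transcript and 313 to 441 of the second, within the coding part of both, and no letter in it is set in capitals since the whole run is identical.
Fcgr2b and Fcgr3 shared run: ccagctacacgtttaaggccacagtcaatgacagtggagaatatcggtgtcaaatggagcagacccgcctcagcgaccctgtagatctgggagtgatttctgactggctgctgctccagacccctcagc
Over all annotated transcripts, 166 words of 50 bases occurred in both genes, which is 2.92% of the distinct words of Fcgr2b and 9.58% of those of Fcgr3, and no other pair of the 6 genes shared such a word. How reads within the run were counted is not given in the sources used here, so small amounts of either gene beside much of the other are uncertain. An antisense gene, Gm38204, overlaps 155 exon bases of Fcgr2b, which is 2.68% of them, and no strand setting of the counting is given.

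The recovered reads of named genes numbered 16948568 to 24549242 per library, and all levels below are reads per 1000000 after scaling with TMM factors (CPM). At this depth 3 reads equal 0.0912 to 0.240 CPM, and the lowest count of any of the 6 genes was 26 reads, so none was at the limit of detection. The labels of the groups were set against marker lists. The 13 Kupffer cell markers summed to 33707 and 29034 CPM in the b-gal+ libraries, 2916 and 2517 for b-gal- libraries, 996 and 411 for EpCAM-positive libraries and 816 and 680 for hepatocytes. The 17 measured markers of sinusoidal endothelium summed to 7472 and 6095 CPM in b-gal+, 32625 and 38081 for b-gal-, 13896 and 11760 for EpCAM-positive cells, and 700.2 and 1703 for hepatocytes. The endothelial sum was thus above the Kupffer sum in the b-gal- F4/80high sort, in the EpCAM-positive sort and in hepatocyte replicate 2, over lists of unlike length. Hepatocyte markers summed to 179404 and 267504.5 CPM in the hepatocyte libraries, against 5009.99 CPM in EpCAM-positive replicate 2, the highest of the other libraries. Cholangiocyte markers summed to 2092 and 6736 CPM in the EpCAM-positive libraries, whose replicates also differed in pan-macrophage markers (1586 and 465 CPM) and in B cell and plasma cell markers (4308 and 1665 CPM, against at most 81.5 CPM in any library of the other groups). In bulk RNA, fewer cells of a type and less RNA per cell cannot be told apart.

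In b-gal+ cells transcripts of activating receptors were several times higher than in their b-gal- F4/80high counterparts, and the transcript of the inhibitory receptor was about as many times lower. Fcgr1 rose 7.01-fold, Fcgr4 7.08-fold and Fcer1g 3.31-fold, Fcgr2b was 7.05-fold lower, and Fcgr3 and Fcgrt did not pass the test. Of the 6 genes, 3 were called higher and 1 lower (limma, adjusted p under 0.05), against 23.3% of all tested genes called in either direction, 10.3% higher and 13.0% lower. The libraries of the groups did not overlap for 5 of the 6 genes, against 69.0% of all genes.

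**Figure D1:**
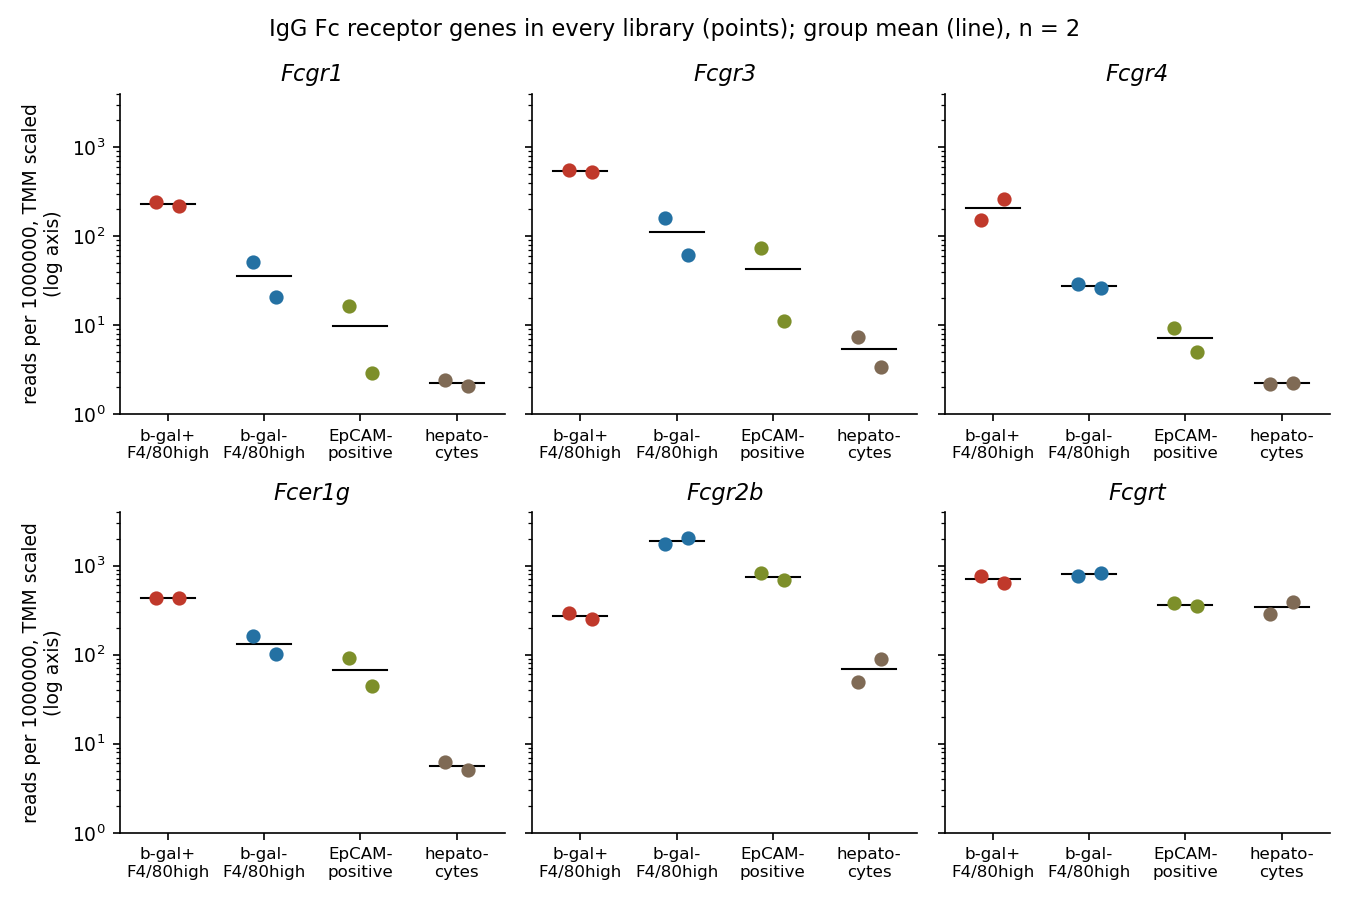
Level of the 6 genes in each of the 8 libraries, in TMM-scaled reads per 1000000 on a log axis, with points for libraries and a line for the mean of the 2 libraries of a group. Fcgr1, Fcgr3, Fcgr4 and Fcer1g are highest in b-gal+ cells, Fcgr2b in b-gal- cells, and Fcgrt stays between 286 and 834 CPM in all libraries.

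Fcgr1, which encodes the high-affinity receptor FcγRI, stood at 242 and 221 CPM in the b-gal+ libraries, 51.4 and 20.5 for b-gal-, 16.5 and 2.92 for EpCAM-positive cells, and 2.44 and 2.08 for hepatocytes. Every b-gal+ library was above every other library, and the replicates of b-gal- and of EpCAM-positive cells were far apart. Set against b-gal- cells, the b-gal+ level differed by 2.81 in log2 (SE 0.74, adjusted p = 0.0350, limma), which is 7.01-fold with a 95% interval of 2.07 to 23.7. That call was lost in 6 of the alternatives: without either b-gal+ library (adjusted p = 0.144 and 0.137), without b-gal- replicate 2 (0.205), without either hepatocyte library (0.0772 and 0.0790) and with edgeR (0.0545).

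Fcgr3, which encodes the low-affinity activating receptor FcγRIII, was the most abundant Fcγ receptor gene of b-gal+ cells per exon length. Its level was 555 and 524 CPM in b-gal+, 161 and 61.5 for b-gal-, 74.1 and 11.1 for EpCAM-positive cells, and 7.46 and 3.35 for hepatocytes. The b-gal+ libraries again did not overlap with the others, but the replicates of b-gal- differed 2.62-fold, while their summed pan-macrophage markers stood at 4283 and 1927 CPM. The replicates of EpCAM-positive cells differed 6.65-fold, and the fit takes 1 estimate of the spread from all groups. The log2 difference of the F4/80high sorts was 2.43 (SE 0.87) and missed the threshold (adjusted p = 0.0937, limma), with a 95% interval of 0.35 to 4.51. It passed in 6 of the alternatives, among them DESeq2 (adjusted p = 0.0187), the fit of only the 2 groups compared (0.0225) and the fit without both EpCAM-positive libraries (0.0131), which was chosen after seeing the data.

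Fcgr4, which encodes FcγRIV, an activating receptor of mouse myeloid cells, was at 154 and 258 CPM in b-gal+, 29.0 and 26.5 for b-gal-, 9.39 and 5.01 for EpCAM-positive cells, and 2.21 and 2.24 for hepatocytes. Here the b-gal+ replicates differed more than those of b-gal-, and no group overlapped with its neighbour. The log2 difference of 2.82 (SE 0.35, adjusted p = 0.0022, limma) is 7.08-fold with an interval of 4.00 to 12.5, and its call held under all 17 alternatives run.

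Fcer1g, the γ chain that the 3 activating receptors need at the cell surface, was at 431 and 428 CPM in b-gal+, 163 and 103 for b-gal-, 90.7 and 44.4 for EpCAM-positive cells, and 6.20 and 5.03 for hepatocytes. It kept the order of groups of its receptors over a smaller range. From b-gal- to b-gal+ cells it went up by 1.73 in log2 (SE 0.36, adjusted p = 0.0153, limma), 3.31-fold with an interval of 1.84 to 5.97. The call was lost without either b-gal+ library (adjusted p = 0.0783 and 0.0790) and without b-gal- replicate 2 (0.106).

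Fcgr2b ran the other way. Its level was 289.9 and 250.5 CPM in b-gal+, 1759.8 and 2058 for b-gal-, 822 and 682 for EpCAM-positive cells, and 49.9 and 89.8 for hepatocytes, so that no group overlapped with another. The b-gal- libraries held 45827 and 42065 reads of it, the most of any of the 6 genes. From b-gal- to b-gal+ cells the change was -2.82 in log2 (SE 0.30, adjusted p = 0.0016, limma), 7.05-fold lower in b-gal+ with an interval of 4.29 to 11.6, and this call too held under all 17 alternatives.

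Fcgrt, which unlike the Fcγ receptors is made by many cell types, was at 768 and 646 CPM in b-gal+, 756 and 834 for b-gal-, 376 and 354 for EpCAM-positive cells, and 286 and 395 for hepatocytes. The libraries of the F4/80high groups overlapped, as did those of EpCAM-positive cells and hepatocytes. The log2 difference of b-gal+ from b-gal- cells stood at -0.17 (SE 0.24, adjusted p = 0.666, limma) with a 95% interval of -0.73 to 0.39, which leaves room for a change of up to 1.66-fold.

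**Figure D2:**
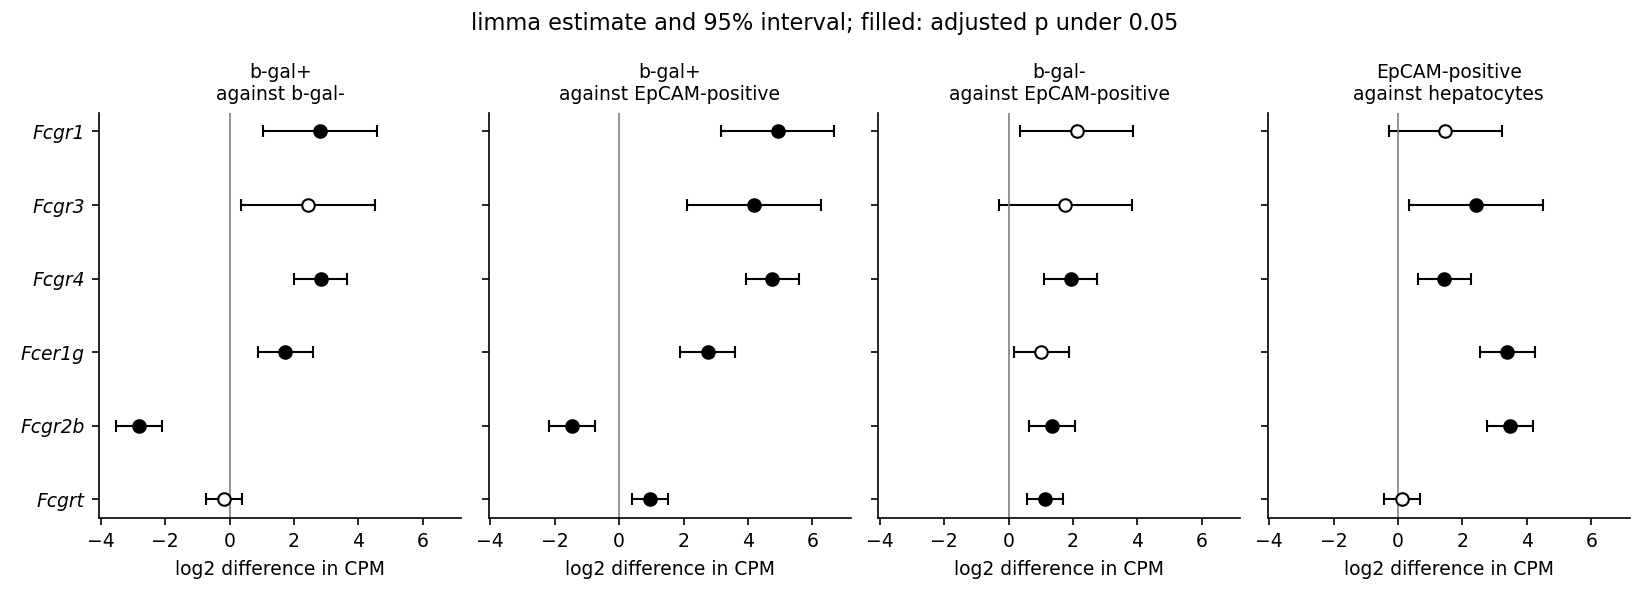
Difference of each gene in 4 of the comparisons, on the log2(CPM + 0.5) scale, with the limma estimate as a point and its 95% interval as a bar; filled points passed adjusted p under 0.05. In the leftmost panel, b-gal+ against b-gal-, Fcgr2b is at -2.82, Fcgr1, Fcgr3 and Fcgr4 lie between 2.43 and 2.82, and Fcgrt is at -0.17.

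The balance of the inhibitory and the activating receptors can be read within each library, where the scaling of the library enters only through the 0.5 CPM added to both sides. The log2 ratio of Fcgr2b to the sum of Fcgr1, Fcgr3 and Fcgr4 was -1.71 and -2.00 for b-gal+, 2.86 and 4.24 for b-gal-, 3.03 and 5.12 for EpCAM-positive cells, and 2.00 and 3.47 for hepatocytes. Only the b-gal+ libraries had a negative ratio among the 8. The b-gal+ and b-gal- means differed by -5.41, which is 42.4-fold, with an exact two-sided permutation p of 0.333, the smallest that 2 against 2 libraries allow. Left-out libraries moved the difference between -6.09 and -4.72.

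Set per kb of exon, so that genes can be compared with each other, the b-gal+ mean was 310.6 CPM per kb for Fcgr3, 164 for Fcgr4, 89.4 for Fcgr1 and 46.7 for Fcgr2b, and the γ chain Fcer1g stood above all of them at 491. In b-gal- cells the same level was 329.7 for Fcgr2b, 64.1 for Fcgr3, 22.1 for Fcgr4 and 13.9 for Fcgr1. Among the 4 Fcγ receptor genes, Fcgr2b thus took 8.55% and 6.81% of the summed level in the b-gal+ libraries, 69.1% and 84.7% for b-gal-, 71.5% and 91.1% for EpCAM-positive cells, and 55.2% and 77.5% for hepatocytes. The shares of Fcgr3 were 54.6% and 47.4% in b-gal+ against 21.1% and 8.44% in b-gal- libraries. The exon length is the union over all annotated transcripts, which can be longer than the transcript a cell makes. It was 5.79 kb for Fcgr2b, 2.59 for Fcgr1, 1.74 for Fcgr3 and 1.26 for Fcgr4, so that the division lowers Fcgr2b the most. In plain CPM the b-gal+ mean of Fcgr2b, 270, was above those of Fcgr1 (231) and Fcgr4 (206).

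**Figure D3:**
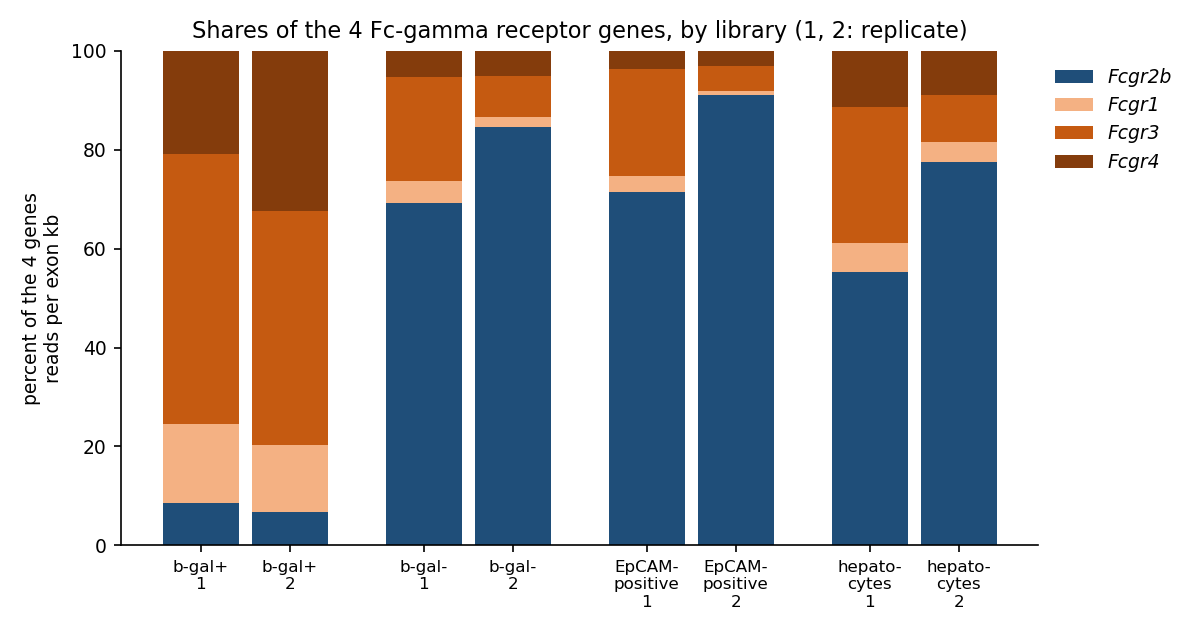
Share of Fcgr2b, Fcgr1, Fcgr3 and Fcgr4 in their summed level per exon kb, as stacked bars in percent, 1 bar for each of the 8 libraries. Fcgr2b takes under 9% in both b-gal+ libraries and 55.2% to 91.1% in the other 6, and Fcgr3 is the largest share of the b-gal+ bars.

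The promoters of the 4 genes that were highest in b-gal+ cells, Fcgr1, Fcgr3, Fcgr4 and Fcer1g, were set beside those of Fcgr2b and Fcgrt. Shown are the 100 bases before the RefSeq start of each gene (build GRCm38.p6, all 6 genes matched), read 5′ to 3′ on the strand of the gene. Capitals mark the letters GAGGAA or its reverse complement TTCCTC, a sequence that PU.1, a transcription factor of myeloid cells, is known to bind. Shorter or other letters that it may bind were not searched for, and the motif was chosen with the levels known.
Fcgr1, chr3:96293970-96294069, minus strand: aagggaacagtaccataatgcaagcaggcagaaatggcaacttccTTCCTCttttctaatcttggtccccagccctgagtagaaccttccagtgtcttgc
Fcgr3, chr1:171059404-171059503, minus strand: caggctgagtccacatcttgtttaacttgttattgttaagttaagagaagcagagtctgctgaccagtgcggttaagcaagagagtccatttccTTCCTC
Fcgr4, chr1:171018826-171018925, plus strand: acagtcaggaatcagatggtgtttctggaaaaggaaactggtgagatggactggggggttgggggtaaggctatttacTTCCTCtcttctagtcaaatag
Fcer1g, chr1:171234350-171234449, minus strand: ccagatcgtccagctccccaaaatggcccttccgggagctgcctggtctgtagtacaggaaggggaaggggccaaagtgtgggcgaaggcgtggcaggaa
Fcgr2b, chr1:170976072-170976171, minus strand: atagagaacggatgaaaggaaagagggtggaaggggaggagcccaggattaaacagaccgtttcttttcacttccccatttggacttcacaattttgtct
Fcgrt, chr7:45103823-45103922, minus strand: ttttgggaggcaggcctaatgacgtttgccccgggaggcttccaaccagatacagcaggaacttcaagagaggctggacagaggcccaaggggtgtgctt
The letters occurred once in each of the windows of Fcgr1, Fcgr3 and Fcgr4, in every case as TTCCTC, beginning 55, 6 and 22 bases before the start. They did not occur in the window of Fcer1g, which had the same order of groups as these 3, nor in those of Fcgr2b and Fcgrt. Of all 32851 windows of that length in the RefSeq table, 9.82% held them on either strand. A second start of Fcgr3 in that table places the same letters 15 bases before it. A match of 6 letters is a description of these windows and was not tested as a binding site.

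Against hepatocytes, every one of the 6 genes was higher in both F4/80high groups. In b-gal+ cells all 6 passed, against 59.2% of all genes called (29.5% higher, 29.6% lower), and the differences ran from 1.07 in log2 for Fcgrt to 6.61 for Fcgr3. In b-gal- cells all 6 passed as well, against 63.2% of all genes (33.5% higher, 29.7% lower), from 1.24 for Fcgrt to 4.82 for Fcgr2b. As folds, Fcgr3 was 97.4-fold, Fcgr1 84.3-fold, Fcgr4 73.3-fold and Fcer1g 70.6-fold higher in b-gal+ cells than in hepatocytes, while Fcgr2b was 4.00-fold and Fcgrt 2.09-fold higher. The libraries did not overlap for any of the 6 genes in these comparisons, against 82.4% and 86.2% of all genes. The call of Fcgrt between b-gal+ cells and hepatocytes was lost without hepatocyte replicate 1 (adjusted p = 0.0546, limma).

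By their means, EpCAM-positive cells stood between the F4/80high groups and hepatocytes for each of the activating genes, and between b-gal- and b-gal+ cells for Fcgr2b. Against b-gal+ cells all 6 genes were called, 5 higher in b-gal+ and Fcgr2b lower, against 32.5% of all genes (14.7% higher, 17.9% lower). Fcgr1 was 30.4-fold, Fcgr4 27.1-fold, Fcgr3 18.3-fold and Fcer1g 6.72-fold higher in b-gal+ cells, Fcgrt was 1.93-fold higher, and Fcgr2b was lower, at -1.47 in log2 (adjusted p = 0.0114, limma). Libraries did not overlap for any of the 6, against 66.0% of all genes. Fcgr3 lost its call without either b-gal+ library (adjusted p = 0.0610 and 0.0633), Fcgr2b without b-gal+ replicate 2 (0.0795), and Fcgrt without either b-gal+ library (0.115 and 0.0657), without EpCAM-positive replicate 2 (0.0684), with only the 2 groups compared (0.0852) and under the deposited scaling (0.102).

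Between b-gal- and EpCAM-positive cells, both rich in endothelial markers, 3 of the 6 genes were called, all higher in b-gal-, against 12.2% of all genes called (5.63% higher, 6.57% lower). Fcgr4 was 3.82-fold (adjusted p = 0.0223, limma), Fcgr2b 2.54-fold (0.0357) and Fcgrt 2.17-fold (0.0308) higher. Fcgr1, Fcgr3 and Fcer1g had log2 differences of 2.12, 1.76 and 1.02 that missed the threshold (adjusted p = 0.109, 0.233 and 0.109), and only Fcgr3 had overlapping libraries, so that 5 of 6 did not overlap, against 55.7% of all genes. The calls depended on single libraries: 0 of the 6 genes were called without either b-gal- library or without either hepatocyte library (limma), where 3 to 5 had an unadjusted p under 0.05, and all 6 were called without EpCAM-positive replicate 1. With all libraries edgeR called 1 of the 6 and DESeq2 3.

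EpCAM-positive cells against hepatocytes gave 4 calls, all higher in EpCAM-positive cells, against 62.5% of all genes called (33.5% higher, 29.1% lower). Fcgr2b was 11.1-fold, Fcer1g 10.5-fold, Fcgr3 5.32-fold and Fcgr4 2.71-fold higher, with adjusted p of 1.1e-04, 2.5e-04, 0.0465 and 0.0098 (limma). Fcgr1 differed by 1.47 in log2 (95% interval -0.29 to 3.23) and Fcgrt by 0.12 (-0.44 to 0.68), and neither passed. Libraries did not overlap for 5 of the 6 genes, against 80.8% of all genes. The call of Fcgr3 was lost in 10 alternatives, among them without EpCAM-positive replicate 1 (log2 difference 1.06, adjusted p = 0.212), and that of Fcgr4 without either hepatocyte library (0.0561 and 0.0539).

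The order of the groups was b-gal+, b-gal-, EpCAM-positive, hepatocytes for Fcgr1, Fcgr3, Fcgr4 and Fcer1g. Among neighbours in that order, all were called for Fcgr4, only the first for Fcgr1, only the last for Fcgr3, and the first and last for Fcer1g. For Fcgr2b the order was b-gal-, EpCAM-positive, b-gal+, hepatocytes with every step called. For Fcgrt it was b-gal-, b-gal+, EpCAM-positive, hepatocytes, and only the step from b-gal+ to EpCAM-positive cells was called.

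Each gene was also set against the summed markers of a cell type in the same library, an alternative scale chosen after seeing the data. Fcgr2b per 100 CPM of sinusoidal endothelial markers was 5.39 and 5.40 for b-gal-, 5.91 and 5.80 for EpCAM-positive cells, 7.13 and 5.27 for hepatocytes and 3.88 and 4.11 for b-gal+ cells. Its plain level ranged 41.2-fold over the 8 libraries, and this ratio 1.84-fold. On this scale the b-gal+ libraries were still below every other library. Set against the 8 pan-macrophage markers, the range narrowed from 117- to 2.65-fold for Fcgr1 and from 165- to 4.63-fold for Fcgr3. It narrowed from 117- to 2.78-fold for Fcgr4 and from 85.7- to 6.31-fold for Fcer1g, and widened from 2.92- to 28.8-fold for Fcgrt. Fcgr3 per 100 CPM of the 8 pan-macrophage markers was 3.80 and 3.34 for b-gal+, 3.76 and 3.19 for b-gal-, 4.67 and 2.40 for EpCAM-positive cells, and 2.29 and 1.01 for hepatocytes, so that the b-gal+ and b-gal- libraries overlapped on that scale.

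**Figure D4:**
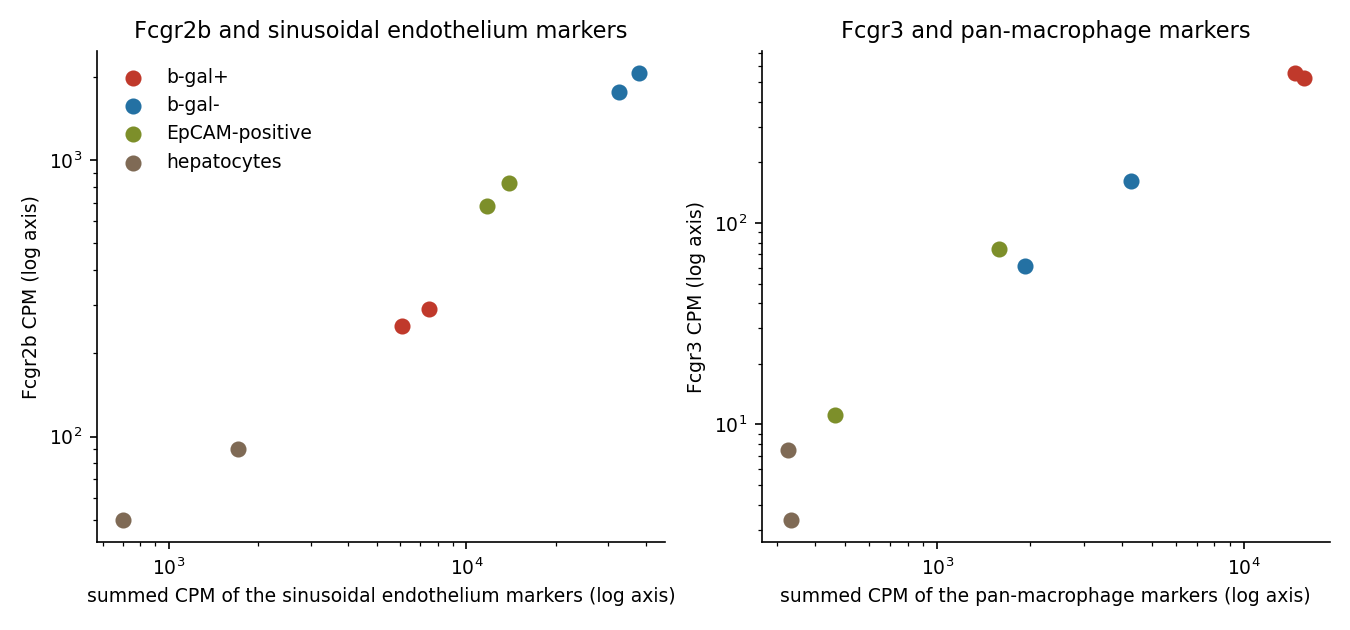
Level of Fcgr2b against the summed level of 17 sinusoidal endothelial markers, and of Fcgr3 against 8 pan-macrophage markers, in CPM on log axes, 1 point for each of the 8 libraries. Both genes rise with their marker sum, and for Fcgr2b the b-gal- points lie at the upper end with 32625 and 38081 CPM of markers.

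On the pan-macrophage scale Fcgr1 was at 1.66 and 1.41 for b-gal+ and 1.20 and 1.07 for b-gal- cells, a small gap without overlap. Fcgr4 was at 1.05 and 1.65 for b-gal+ and 0.677 and 1.37 for b-gal- cells, which overlap. Fcer1g was higher in b-gal- cells on it, at 3.80 and 5.33 against 2.95 and 2.73. On the endothelial scale, by contrast, Fcgr3 was at 7.43 and 8.59 for b-gal+ against 0.494 and 0.161 for b-gal- libraries. Sums of other markers differed between libraries as well. Those of neutrophils and of recruited cells were higher in replicate 1 than in replicate 2 of every group. Neutrophil markers, of a cell type that also makes Fcgr3, Fcgr4 and Fcer1g, summed to 230.4 and 166 CPM in b-gal+, 422 and 43.3 for b-gal-, 403 and 32.6 for EpCAM-positive cells, and 8.79 and 3.59 for hepatocytes. All 10 that were tested missed the threshold between b-gal+ and b-gal- cells. Recruited monocyte and macrophage markers, of cells that can make the activating receptors, summed to 3329 and 424 CPM in b-gal+, 8900.2 and 1146 for b-gal-, 4931 and 1169 for EpCAM-positive cells, and 6099 and 5856 for hepatocytes, which make Fn1 of that list. Between b-gal+ and b-gal- cells 1 of these 8 markers was called, lower in b-gal+, and 7 did not pass. B cells make Fcgr2b as well, and the 8 measured markers of B cells and plasma cells summed to 19.1 and 24.4 CPM in b-gal+, 46.8 and 81.5 for b-gal-, 4308 and 1665 for EpCAM-positive cells, and 1.77 and 2.87 for hepatocytes. They were thus higher in b-gal- than in b-gal+ cells, as Fcgr2b was. In EpCAM-positive cells they were higher still, while Fcgr2b was lower there than in b-gal- cells. Of the 8, 3 were called lower in b-gal+ than in b-gal- cells, against 13.0% of all genes. These 3, named after their values were seen, had means of 0.997 against 5.14 CPM (Cd79a), 0.483 against 2.79 (Cr2) and 2.33 against 29.0 (Jchain). The part of these cell types in the levels was not tested.

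The partners of the receptors were measured in the same libraries. Syk, the kinase that binds the phosphorylated γ chain, was at 470.2 and 573 CPM in b-gal+, 179 and 106 for b-gal-, 228 and 90.1 for EpCAM-positive cells, and 5.24 and 4.15 for hepatocytes, and was called higher in b-gal+ than in b-gal- cells (3.76-fold, adjusted p = 0.0230, limma). Tyrobp, another ITAM adaptor of myeloid cells, was at 805 and 706 CPM in b-gal+ and 205 and 78.9 for b-gal- (5.91-fold, adjusted p = 0.0464). Inpp5d, which encodes the phosphatase that FcγRIIb recruits, had its own highest values in b-gal+ cells, where Fcgr2b was low: 352 and 358 CPM against 172 and 125 for b-gal-, 260 and 92.2 for EpCAM-positive cells, and 5.09 and 5.75 for hepatocytes. That log2 difference of 1.27 missed the threshold (SE 0.44, adjusted p = 0.0843). B2m, the partner of Fcgrt, was at 1612 and 1740 CPM in b-gal+, 1268 and 1659 for b-gal-, 1276 and 982 for EpCAM-positive cells, and 2537 and 2892 for hepatocytes. B2m differed by 0.21 in log2 from b-gal- to b-gal+ cells (SE 0.38, adjusted p = 0.757).

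Of the 26 genes of ITAM and Src-family signalling below the activating receptors, 14 rose in b-gal+ against b-gal- cells, 1 fell and 11 did not pass, with a median log2 difference of 1.54. Over all genes tested in this comparison 10.3% were called higher, 13.0% lower and 23.3% in either direction, with a median of -0.02, and the counts of the lists that follow are to be read against these shares. Pik3ap1, an adaptor that recruits PI3-kinase, was at 306 ± 1.85 against 52.8 ± 15.3 CPM (mean ± SD, n = 2 each, log2 difference 2.56, adjusted p = 9.1e-04). The exchange factor Vav1 was at 361 ± 18.2 against 68.2 ± 31.2 CPM (2.47, adjusted p = 0.0233) and the adaptor Blnk at 37.3 ± 6.57 against 7.29 ± 1.31 (2.28, 0.0014). The member that fell was the Src-family kinase Fyn, at 124 ± 13.5 against 542 ± 39.9 CPM (-2.13, 0.0035), named after its value was seen.

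Of the 12 listed genes of the inhibitory pathway below Fcgr2b, 4 rose in b-gal+ cells, where Fcgr2b itself was lower, and 8 did not pass, against 10.3% of all genes called higher, with a median of 0.97. The phosphatase SHP-1 gene Ptpn6 was at 470.3 ± 26.9 against 123 ± 62.4 CPM (2.03, adjusted p = 0.0312), Dok3, an adaptor, at 98.7 ± 5.81 against 31.5 ± 13.1 (1.69, 0.0298), Pag1, a membrane anchor of Csk, at 83.9 ± 8.62 against 29.5 ± 13.3 (1.56, 0.0231), and Csk, the kinase that restrains Src-family kinases, at 302 ± 2.68 against 129 ± 21.1 (1.23, 0.0192). Of 20 genes of the phagocytic cup and the oxidase, 4 rose and 16 did not pass, with a median of 1.63. The called share was near the 23.3% of all genes called in either direction, but all 4 calls were higher, against 10.3% of all genes. Among the 4 were the kinase gene Pak1 (134 ± 18.4 against 25.6 ± 3.98 CPM, log2 difference 2.37, adjusted p = 0.0025), the oxidase subunit gene Cyba (1.95, 0.0431) and Abi3 (0.80, 0.0478).

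Of 16 genes listed for the partner of the neonatal receptor and for the handling of cargo in cells, 2 rose, 1 fell and 13 did not pass. The median was 0.09, and this called share too was not above the 23.3% of all genes. Lrp1, a large endocytic receptor, was at 3859 ± 768 against 809.8 ± 500.4 CPM (2.39, adjusted p = 0.0244), Rab11b, a GTPase of recycling endosomes, differed by 0.49 (0.0348), and Dab2, an adaptor of clathrin-coated pits, fell by 0.75 on the log2 scale (0.0438). Of 18 tested genes listed as other Fc receptors, antibody- or complement-binding proteins or adaptors, 6 rose, 2 fell and 10 did not pass. Over all genes 10.3% were called higher and 13.0% lower, and the median of the list was -0.02. The complement receptor gene Vsig4 was at 2159 ± 24.2 against 119 ± 10.8 CPM (4.18, adjusted p = 0.0109), and C1qa, C1qc and C1qb, whose products bind IgG in immune complexes, rose by 3.48, 3.47 and 3.24 (0.0186, 0.0298 and 0.0237). Vsig4 also stands in the Kupffer list and C1qa in the pan-macrophage list. The rest of those that rose were the adaptor genes Tyrobp and Hcst, and no other Fc receptor gene was among the 6. Hcst, named after its value was seen, was at 9.54 ± 0.356 against 2.01 ± 0.418 CPM. The 2 that fell, Fcrlb and Cr2, named after their values were seen, were below 10 CPM in both groups.

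Of 8 tested genes for other receptors that signal through Fcer1g, 4 rose and 4 did not pass, against 10.3% of all genes called higher, with a median of 1.52. Lilra5 was at 304 ± 42.4 against 28.9 ± 1.32 CPM (3.37, adjusted p = 0.0187), Clec4n, which encodes the C-type lectin dectin-2, at 248 ± 89.7 against 39.1 ± 25.5 (2.77, 0.0462) and Cd300ld at 367 ± 38.7 against 62.8 ± 24.9 (2.59, 0.0308). The fourth, Pira2, was at 8.63 ± 0.947 against 1.54 ± 0.863 CPM and was named after its value was seen. Beside all of these lists, 12 of 13 Kupffer markers and 6 of 8 pan-macrophage markers rose in b-gal+ cells and 15 of 17 sinusoidal endothelial markers fell. The part of that shift in the pathway counts was not tested. Of the 38 pathway genes called between b-gal+ and b-gal- cells, 5 kept their call under all 17 alternatives (Pik3ap1, Blnk, Vav2, Fyn and Pak1), and 33 lost it in at least 1, each of them when a b-gal+ or b-gal- library was left out.

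Between b-gal- and EpCAM-positive cells, where 12.2% of all genes were called, 3 of 26 signalling genes were lower in b-gal- and 23 did not pass (median 0.04), and of the 20 phagocytic genes 2 were higher, 1 was lower and 17 did not pass (median 0.12, with 0.07 over all genes tested). Against hepatocytes 23 of the 26 signalling genes and all 20 phagocytic genes were higher in b-gal+ cells, against 29.5% of all genes, and 21 and 19 were higher in b-gal- cells, against 33.5%. Of the 16 genes for the partner of the neonatal receptor and cargo handling, 3 were higher, 3 were lower and 10 did not pass in b-gal+ cells. Over all genes in that comparison 59.2% were called (29.5% higher, 29.6% lower). In b-gal- cells 4 were higher, 4 were lower and 8 did not pass, against 63.2% of all genes called (33.5% higher, 29.7% lower). The called share of this list was thus below that of all genes in each of these comparisons with hepatocytes. Between b-gal- and EpCAM-positive cells 1 of the 16 was higher, 2 were lower and 13 did not pass, against 12.2% of all genes called.

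Likeness over the 8 libraries was measured as Pearson's r of log2(CPM + 0.5) among the 9720 genes that averaged 10 CPM or more; the points share groups, depth and scaling, so r is a description. Fcgr1 and Fcgr3 had r = 0.986, Fcgr1 and Fcgr4 0.978, and Fcer1g 0.929 to 0.962 with these 3. Fcgr2b had r of 0.316 to 0.586 with the other 5 genes. Most like Fcgr1 were Tlr8, a receptor for single-stranded RNA (r = 0.998), Slc7a8 and Cyfip1. Most like Fcgr3 were Ifngr2, a chain of the interferon-γ receptor (0.999), Cd300lb and Kcnk13. Most like Fcgr4 were Oas2, an interferon-induced enzyme (0.998), Mtr and Rcan1; Oas2 was at 176 and 337 CPM in the b-gal+ libraries and so was higher in replicate 2, as Fcgr4 was. Most like Fcer1g were Zfp710, Fes and Sirpa (0.999 to 0.998), and most like Fcgr2b were Lhfpl2, Cd55 and Tspan18 (all 0.998). For Fcgrt the closest were Plod1 (0.982), Gpr107 and Nhlrc3 (0.970).

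With the scaling that the deposited values imply, the median log2 difference over all genes moved by -0.13 between b-gal+ and b-gal- cells, by -0.30 and -0.15 for b-gal+ and b-gal- against EpCAM-positive cells, and by 0.77, 0.96 and 1.17 for b-gal+, b-gal- and EpCAM-positive cells against hepatocytes. The share of calls that were higher in the first group went from 44.4% to 32.5% for b-gal+ against b-gal-, from 45.1% to 25.6% and from 46.2% to 25.5% against EpCAM-positive cells, and from 49.9% to 76.7%, 53.0% to 79.7% and 53.5% to 84.9% against hepatocytes. None of the 6 genes changed its direction with it in any of the 6 comparisons. In EpCAM-positive cells against hepatocytes it raised Fcgr1 to 2.60 (adjusted p = 0.0166, limma) and Fcgrt to 1.49 (0.0015), both past the threshold.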

How the data were processed

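Bulk RNA of 8 sorted or pelleted liver cell libraries was sequenced, 2 for each of 4 groups taken from the sample labels. Hepatocyte replicate 1 was deposited as read counts per gene. For the remaining 7 libraries the deposited unit is another one: counts that the authors had multiplied by 1 factor per library (1.08 to 1.54), written with decimal commas. HTSeq and GRCm38.p4 (mm10) are named per the submitters' processing notes; aligner, annotation, strand setting and versions are not given in the sources used here. Division by the factor gave whole reads for 100% of values within 0.01 reads. Of 21982 rows, 14 with a date for a symbol (0.0514% to 0.182% of reads) were left out.

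Reads were scaled with TMM (edgeR 4.0.16, factors 0.527 to 1.49) and genes filtered with filterByExpr. Limma 3.58.1 (trend option, log2(CPM + 0.5)) was fitted to all 8 libraries, two-sided, with Benjamini-Hochberg adjustment over 14404 genes; adjusted p under 0.05 is a call. Fold changes are on the log2(CPM + 0.5) scale, which understates those of low genes. Alternatives were DESeq2 1.42.0, edgeR's quasi-likelihood test, 2 other scalings, a pseudocount of 2, no filter, a fit of the compared groups only, a replicate block and leaving out libraries.

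The 6 genes, the gene lists and the tests were chosen with earlier results of these data known. Beside the 6 genes and B2m, Syk, Inpp5d and Tyrobp, the text names the 3 genes most correlated with each gene (mean of at least 10 CPM, predicted genes left out) and up to 4 called members of each pathway list with the largest difference, a few of which are not reported here. Positions are from GENCODE M21, promoters from RefSeq.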

Additional observations from a re-analysis of the deposited data

How the results depend on the processing

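For the 6 genes, 523 of 594 values from the alternatives kept direction and side of the threshold, 56 lost a call, 14 gained one and 1 changed sign. Of the b-gal+ against b-gal- differences, those of Fcgr2b and Fcgr4 held throughout. Left-out libraries moved the number of the 6 genes called from 2 to 5 for b-gal+ against b-gal- (4 with all libraries; 2 without either b-gal+ library or b-gal- replicate 2), from 3 to 6 for b-gal+ against EpCAM-positive (6; 3 without b-gal+ replicate 2), from 0 to 6 for b-gal- against EpCAM-positive (3), and from 2 to 5 for EpCAM-positive against hepatocytes (4; 2 without either hepatocyte library). For b-gal- against EpCAM-positive the number was 1 with the deposited scaling, 1 with edgeR and 0 in the limma fit of only the 2 groups, where 3 of the 6 had an unadjusted p under 0.05; DESeq2 with all libraries called 3. A group left with 1 library was assumed to vary like the others. The cause of these changes was not tested.

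Calls over all genes went from 3357 for b-gal+ against b-gal- to 1862, 1357, 2165 and 1289 without b-gal+ replicates 1 and 2 and b-gal- replicates 1 and 2. For b-gal+ against EpCAM-positive they went from 4686 to 2750 with only the 2 groups and to 2720 and 1953 without b-gal+ replicates 1 and 2. For b-gal- against EpCAM-positive they went from 1757 to 2841 with DESeq2, 2982 without EpCAM-positive replicate 1, 722 and 705 without b-gal+ replicates 1 and 2, 391 without hepatocyte replicate 1, 2 without b-gal- replicate 1, and 0 (limma) without b-gal- replicate 2, without hepatocyte replicate 2 or with only the 2 groups, where 2709, 4092 and 3077 genes had an unadjusted p under 0.05.

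Signs changed for differences that had not been called, and for 1 that had. Left-out libraries moved Fcgrt in EpCAM-positive cells against hepatocytes from -0.16 (without hepatocyte replicate 1) to 0.29. For b-gal- against EpCAM-positive they moved Inpp5d from -0.81 to 0.68, Syk from -0.73 to 0.61 and Tyrobp from -0.49 to 1.69. B2m against hepatocytes went to 0.35, 0.31 and 0.10 for b-gal+, b-gal- and EpCAM-positive cells with the deposited scaling, of which the last had been called at -1.27.

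With the replicate number as a block, 5, 6, 6, 6, 4 and 4 of the 6 genes were called in b-gal+ against b-gal-, b-gal+ and b-gal- against hepatocytes, b-gal+ and b-gal- against EpCAM-positive, and EpCAM-positive against hepatocytes, and the log2 ratio of inhibitory to activating genes differed by -5.41 as before. Fcgr3 was called between b-gal+ and b-gal- (adjusted p = 0.0237) and Fcer1g between b-gal- and EpCAM-positive (0.0456). Deviations of same-numbered libraries correlated at 0.177 to 0.494, but the labels do not say what a number marks and there are only 2.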
